A study of Drosophila melanogaster with 8 samples.

Results

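The transcriptomes of control Drosophila embryos were compared between embryonic stage 16 and stage 14. The comparison rests on 4 of the 8 arrays of the series, 2 from stage 16 and 2 from stage 14. Both control groups carried the elav-GAL4 driver, which is active in neurons, in the genotype w;;elav-GAL4. Stage 16 controls were 28 to 32 h old. Stage 14 controls were 22 to 26 h old in the sample labels, and the series text gives 24 to 26 h. The other 4 arrays came from w;UAS-dimm2A3/+;elav-GAL4/+ embryos of both stages, called elav-dimm here, in which neurons express a myc-tagged transgene of the transcription factor DIMMED. Parents were reared at 25 °C and eggs were collected at 18 °C. RNA came from dechorionated whole embryos, so every signal sums over all tissues of many animals, and fewer cells of a type cannot be told apart from less RNA per cell. Of 18769 probe sets other than controls, 8144 had a log2 signal above 4 on 2 or more of the control arrays. These were compared, and they represented 6774 genes.

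Between these stages the Drosophila embryo turns from building its organs to preparing for life as a larva. Dorsal closure and head involution proceed and most neuroblasts stop dividing. Axon tracts and synapses form, muscles become contractile, and the epidermis and tracheae secrete a chitinous cuticle. A pulse of the steroid hormone ecdysone precedes cuticle secretion, and its early response genes are followed by the nuclear receptor gene ftz-f1.

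The signals are log2 values made by the authors with GCRMA, a method that corrects background, normalises arrays and summarises the probes of each probe set. Between 7574 and 7651 probe sets lay above 4 on each control array, and 38.4% to 40.9% sat at the lowest value of their array. That lowest value was 2.19 on both stage 16 arrays and 2.18 on both stage 14 arrays, as separate processing of the stages would leave, so stage and processing cannot be told apart fully. Only 2 arrays per group limit the precision. The series text leaves unclear whether both came from the same RNA, in which case the p-values measure technical spread. The stage 16 arrays differed from each other more than the stage 14 arrays did. The SD of the difference between the 2 arrays was 0.776 at stage 16 and 0.163 at stage 14. On stage 16 replicate 1 the control probe set at the 5' end of actin read 4.72, against 10.04 on replicate 2 and 11.32 and 11.09 at stage 14, while the 3' probe set read 13.41 and 13.77 at stage 16 and 14.24 and 14.18 at stage 14. For eIF-4a the 5' probe set read 7.8 on stage 16 replicate 1, against 12.27 on replicate 2 and 12.54 and 12.25 at stage 14. Its 3' probe set read 14.9 and 15.05 at stage 16 and 15.1 and 15.07 at stage 14. The part of this loss of 5' signal in the changes below was not tested. Where leaving out arrays moves a count of 5 or more genes in a list by over 1.5 times, the count without the stage 16 replicate 1 arrays of both genotypes, or the range with each control array left out in turn, stands beside it. Spiked-in hybridisation controls averaged 0.34 higher at stage 16, and all 9 were higher.

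Of 34 markers chosen for 10 tissues, 29 had a probe set of their own and 17 exceeded 4 on at least 1 control array. At least 1 marker was detected for neurons, glia, muscle, epidermis, trachea, haemocytes, fat body, midgut and germ line. The germ line rests on osk alone, which read 4.70 on 1 stage 14 array and at most 2.39 on the others. None of the 18 chorion and yolk genes with a probe set exceeded 3.32. The neuronal marker brp, the cuticle-tanning genes ple and Ddc, the haemocyte gene Hml, the larval fat body genes Lsp2 and Fbp1, and the germ line gene vas stayed below 4 on all 4 arrays. Mhc, stg and trh had no probe set of their own in the annotation and were not analysed here. The dimm gene itself read 2.53 and 2.68 at stage 16, against 2.86 and 2.80 at stage 14, below the signal minimum.

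At stage 16, 1767 probe sets were higher than at stage 14, which is 21.7% of those tested, and 3217 were lower, which is 39.5% (limma, adjusted p under 0.05). Changes of 2-fold or more made up 1272 of the higher and 1831 of the lower ones. The median change of all tested probe sets was -0.38. On the deposited scale 35.5% of the calls were thus higher. After each array was centred on the median of its tested probe sets, which removes a shift of -0.21, 2144 were higher and 2460 lower, a share of 46.6% higher, and no call turned to the opposite direction. Per gene, 22.4% were called higher and 39.8% lower, and after centring 26.7% were higher and 30.2% lower. Centring on the median of all probe sets instead moved the counts the other way, to 1701 probe sets higher and 3476 lower. Unless stated, centring below means that on the tested probe sets. Without the replicate 1 arrays of stage 16 the gene shares were 27.5% higher and 51.6% lower. These shares are the background for the counts of each gene list below, where "rose" and "fell" mark genes past the test on the deposited scale. A gene that passed the signal minimum through 1 stage only had to differ, so for each list with 4 or more such genes the counts over its members above 4 at both stages are also given. Above 4 at both stages means on at least 1 array of each stage, so the other array of a stage can lie below 4. For a gene that passed through 1 stage only the fold is a lower bound, computed with signals below 4 raised to 4. A total of 565 probe sets exceeded 4 on both stage 16 arrays and neither stage 14 array, and 471 did so on both stage 14 arrays and neither stage 16 array.

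**Figure D1:**
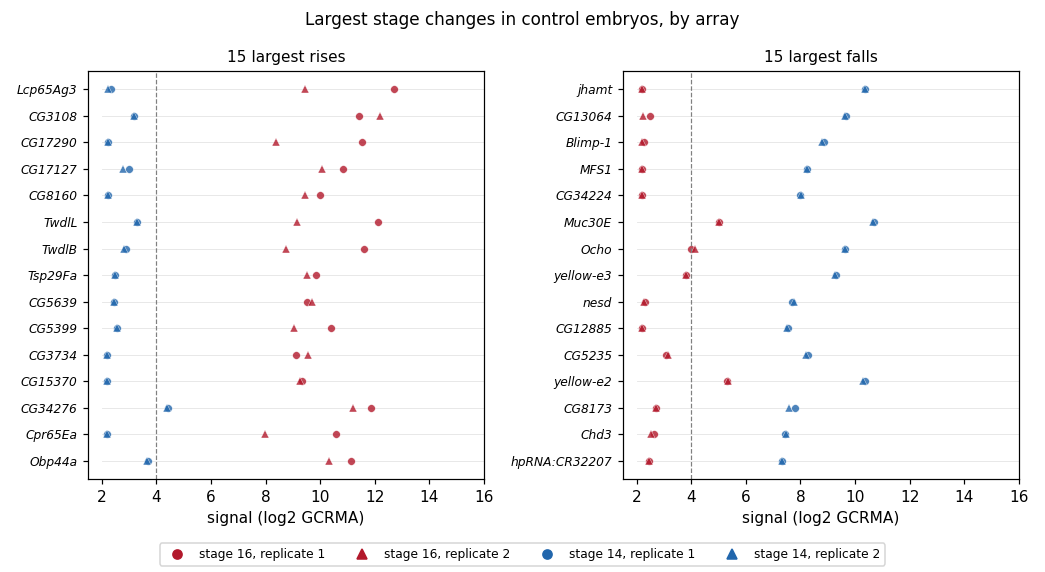
Signals (x axis, log2 GCRMA) of the 15 genes with the largest rises and the 15 with the largest falls past the test, one row per gene. Red marks are stage 16 arrays and blue marks stage 14 arrays, circles replicate 1 and triangles replicate 2, and the dashed line is the signal minimum of 4; the stage 14 marks of 14 of the 15 risen genes lie below it, and the stage 16 marks of Lcp65Ag3, CG17290, TwdlL, TwdlB and Cpr65Ea lie far apart.

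The 15 largest rises were led by genes of the larval cuticle and by genes known only by a number. Lcp65Ag3, a larval cuticle protein gene, read 12.69 and 9.46 at stage 16, against 2.35 and 2.22 at stage 14. CG3108 read 11.44 and 12.20 at stage 16, against 3.17 and 3.17 at stage 14. Tsp29Fa, a tetraspanin gene, read 9.84 and 9.53 at stage 16, against 2.49 and 2.49 at stage 14. Each of these genes was near the lowest signal at stage 14 and bright at stage 16. The remaining rises were those of CG17290, CG17127, CG8160, TwdlL, TwdlB, CG5639, CG5399, CG3734, CG15370, CG34276, Cpr65Ea and Obp44a, which encodes an odorant-binding protein. Since 14 of the 15 lay below 4 on both stage 14 arrays, the size of their rise is a bound, at least 38.6-fold to 226-fold when signals below 4 are raised to 4. Without the replicate 1 arrays of stage 16 the calls of Lcp65Ag3 (adjusted p = 0.19), CG17290 (0.124), TwdlL (0.128), TwdlB (0.22) and Cpr65Ea (0.0576) were lost, and the other 10 kept theirs.

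The largest fall was that of jhamt, which encodes the methyltransferase of the last step of juvenile hormone synthesis. It read 2.19 and 2.19 at stage 16, against 10.36 and 10.35 at stage 14, at least 81.7-fold lower. Blimp-1, an ecdysone-induced transcriptional repressor, read 2.27 and 2.21 at stage 16, against 8.87 and 8.79 at stage 14, at least 28.5-fold lower. Ocho, a Bearded family gene of the Notch pathway, read 4 and 4.15 at stage 16, against 9.62 and 9.62 at stage 14. In all 3 genes the arrays of each stage lay close together and far from those of the other stage. Stages without overlap were a condition of their choice. Muc30E, a mucin gene, fell by 5.65 on the log2 scale and yellow-e2, of the yellow family, fell by 4.99. yellow-e3 of the same family was at least 39.1-fold lower, nesd at least 13.2-fold and Chd3, a chromatin remodelling gene, at least 11-fold. The other falls were those of CG13064, MFS1, CG34224, CG12885, CG5235, CG8173 and hpRNA:CR32207. Of the 15 falls, 12 ended below 4 on both stage 16 arrays, and with signals below 4 raised to 4 their sizes were 9.90-fold to 81.7-fold. All 15 kept their call without the replicate 1 arrays.

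**Figure D2:**
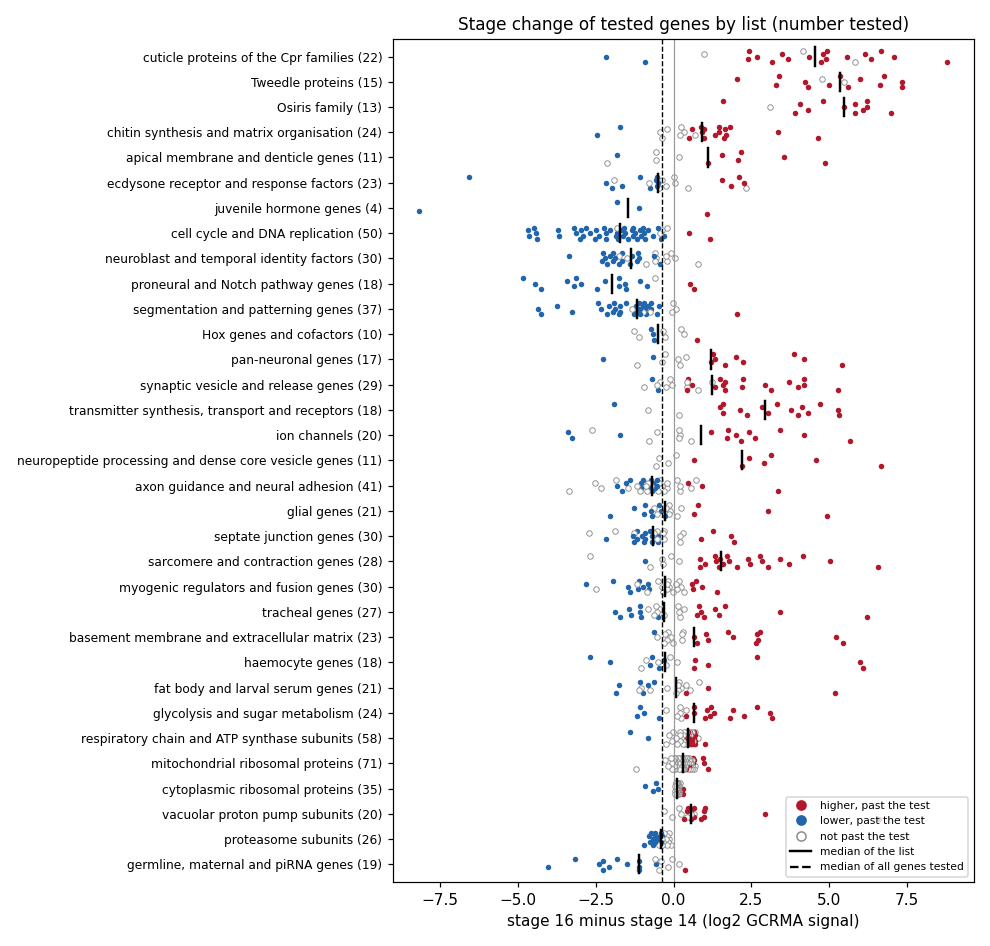
Change of each tested gene (x axis, stage 16 minus stage 14 in log2 GCRMA signal) in 33 gene lists (rows, with the number tested). Filled points passed the test, red higher and blue lower at stage 16, open points did not, short bars are list medians and the dashed line is the median of all genes, -0.37; the Cpr, Tweedle and Osiris medians lie between 4.54 and 5.48 and the cell cycle median at -1.73.

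Among the gene lists, the Osiris, Tweedle and Cpr families had the highest median changes. Of 81 genes of the Cpr families, whose proteins bind chitin through a conserved motif, 22 passed the signal minimum, 14 of them through the stage 16 arrays only. Of these 22, 17 rose and 2 fell, with a median change of 4.54, against a median of -0.37 over all genes. Of the 8 above 4 at both stages, 5 rose and 2 fell, with a median of 2.53. Cpr65Eb read 9.66 and 9.70 at stage 16, against 3.14 and 2.90 at stage 14. Ccp84Ac read 8.86 and 8.86 at stage 16, against 2.51 and 2.51 at stage 14. Both were bright on both stage 16 arrays alike. Cpr78Cb fell by 2.19 and Cpr11A by 0.93, with 8.18 and 7.66 at stage 16 against 8.74 and 8.95 at stage 14. The call of Cpr11A was lost after centring, which left 17 risen and 1 fallen. With signals below 4 raised to 4, 13 rose and 2 fell.

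Among the Tweedle genes, cuticle proteins that shape the larval body, 15 of 24 passed the signal minimum, 8 of them through stage 16 only. Of the 15, 13 rose and none fell, with a median of 5.36. Of the 7 above 4 at both stages, 6 rose, with a median of 5.48. TwdlT read 10.02 and 10.01 at stage 16, against 3.55 and 3.22 at stage 14, at least 64.7-fold higher. TwdlG, chosen after its values were seen, read 11.70 and 11.86 at stage 16, against 7.19 and 4.39 at stage 14, and here the stage 14 arrays were the ones that differed. TwdlM read 12.05 and 9.45 at stage 16, against 4.79 and 3.17 at stage 14.

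The 2 stage 16 arrays disagreed on the size of these rises. Replicate 1 was higher than replicate 2 for 19 of the 22 Cpr genes and 12 of the 15 Tweedle genes, with median gaps of 1.31 and 1.55. Without the replicate 1 arrays of both genotypes, 15 Cpr and 9 Tweedle genes rose. Without replicate 1 of the stage 16 controls alone, 11 Cpr and 10 Tweedle genes rose. Leaving out each control array in turn gave 9 to 19 Cpr and 8 to 14 Tweedle genes, with the lowest counts when stage 14 replicate 2 was left out and 10 of each without stage 14 replicate 1, and array weights gave 13 and 9. The elav-dimm arrays, which enter the estimate of the spread, also differed: at stage 14, Lcp65Ag3 read 10.24 on replicate 1 and 2.35 on replicate 2, and TwdlB 10.13 and 3.04. On that elav-dimm array 9 of the 15 Tweedle genes and 8 of the 22 Cpr genes were over 1 log2 unit above replicate 2, against 3 and 2 on the control arrays of stage 14. With the 4 control arrays alone, 16 Cpr and 13 Tweedle genes rose. The plot of differences between the stage 16 arrays shows the spread of each group.

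**Figure D3:**
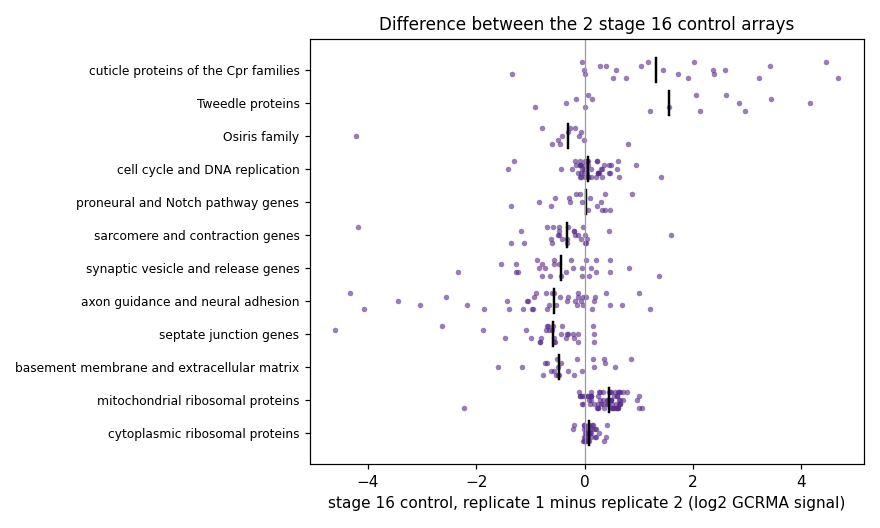
Difference between the 2 stage 16 control arrays (x axis, replicate 1 minus replicate 2 in log2 GCRMA signal) for each tested gene of 12 lists (rows); black bars are medians. Replicate 1 is higher for most Cpr and Tweedle genes (medians 1.31 and 1.55) and lower for most axon guidance and septate junction genes (medians -0.56 and -0.58).

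The Osiris family, insect transmembrane proteins of cuticle-secreting cells, rose almost throughout. Of 23 genes 13 passed the signal minimum, 4 through stage 16 only, and 12 rose and none fell, with a median of 5.48. Of the 9 above 4 at both stages 8 rose, with a median of 4.79. Osi14 and Osi7 were chosen after their values were seen. Osi14 read 14.38 and 14.64 at stage 16, against 9.96 and 9.48 at stage 14. Osi2 read 9.99 and 9.19 at stage 16, against 2.60 and 2.60 at stage 14. Osi18 read 12.19 and 12.60 at stage 16, against 6.63 and 5.73 at stage 14. The rise was thus seen both in genes already bright at stage 14 and in genes near the lowest signal then. Osi7 read 8.56 and 12.79 at stage 16, against 7.94 and 7.21 at stage 14, and did not pass (adjusted p = 0.163), with 4.22 between its 2 stage 16 arrays. Unlike the cuticle proteins, replicate 1 was the lower array for 12 of the 13 genes, with a median gap of -0.30, and without the replicate 1 arrays all 13 rose.

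Genes of chitin synthesis and matrix organisation rose in 15 of 24 tested cases and fell in 2, with a median of 0.90. Of the 20 above 4 at both stages 13 rose and none fell. The chitin synthase gene kkv read 12.65 and 12.76 at stage 16, against 11.07 and 11.05 at stage 14, a rise of 1.64 ± 0.11 (adjusted p = 8.94e-05). Peritrophin-A, a chitin-binding protein gene, was at least 23.3-fold higher and obst-E, of the obstructor family, at least 5.84-fold. obst-B of that family rose by 1.82 and the chitinase gene Cht7 by 1.69. The genes that fell were Chs2, the second chitin synthase, known from the gut lining, at 2.55 and 2.55 at stage 16 against 5.11 and 4.92 at stage 14, and reb, which acts in chitin deposition, at 3.58 and 3.58 against 5.48 and 5.13. Chs2 and reb were both below 4 at stage 16. Of 4 tested enzymes of cuticle pigment and hardening, the laccase gene stw rose by 2.97, t by 2.14 and speck by 0.71. Of 11 tested apical membrane and denticle genes, 6 rose and 1 fell. The zona pellucida domain genes dyl, dy and mey rose by 4.85, 2.16 and 2.07, and f, an actin-bundling gene, by 3.55. The transcription factor gene ovo, whose shavenbaby product directs denticle formation, fell by 1.81. The epidermal regulator grh read 11.21 and 11.58 at stage 16, against 11.97 and 11.95 at stage 14, and did not pass (-0.56 ± 0.20, adjusted p = 0.055).

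**Figure D4:**
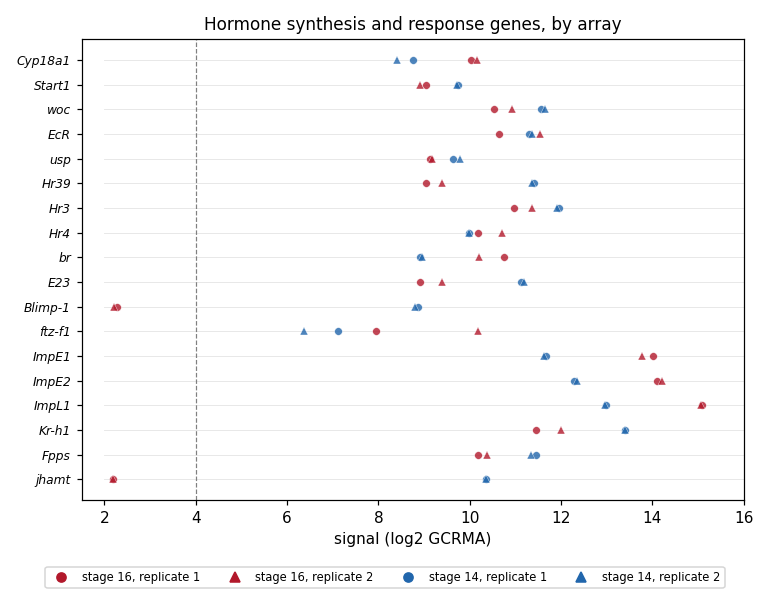
Signals (x axis, log2 GCRMA) of 18 hormone synthesis and response genes, one row per gene. Red marks are stage 16 and blue marks stage 14 arrays, circles replicate 1 and triangles replicate 2, and the dashed line is the signal minimum of 4; Blimp-1 and jhamt are at 2.19 to 2.27 at stage 16, and the 2 stage 16 marks of ftz-f1 lie apart at 7.94 and 10.17.

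Genes of the ecdysone response rose and fell in shares near those of all genes. Of 23 tested, 4 rose and 10 fell, which is 17.4% and 43.5%, against 22.4% and 39.8% of all genes. Their median was -0.49, against -0.37 over all genes, and after centring 4 rose and 8 fell. Without the stage 16 replicate 1 arrays 7 rose and 13 fell. The risen genes were the ecdysone-inducible ImpE1, ImpE2 and ImpL1 and the zinc finger gene br. ImpL1 read 15.08 and 15.07 at stage 16, against 12.98 and 12.97 at stage 14, a rise of 2.10 ± 0.08. ImpE1 rose by 2.26, ImpE2 by 1.85 and br by 1.55. The largest falls were those of Blimp-1, of Hr39, a nuclear receptor gene, by 2.16, of E23, an ABC transporter gene, by 1.99, and of Kr-h1, a zinc finger gene that responds to juvenile hormone, by 1.67. Hr39 read 9.04 and 9.40 at stage 16, against 11.40 and 11.36 at stage 14. The receptor subunit EcR read 10.63 and 11.54 at stage 16, against 11.30 and 11.37 at stage 14, and its arrays overlapped between the stages (-0.25 ± 0.41, adjusted p = 0.616). The late factor ftz-f1 read 7.94 and 10.17 at stage 16, against 7.11 and 6.38 at stage 14; the stages did not overlap, but the change of 2.31 ± 1.04 did not pass (adjusted p = 0.103).

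Few genes of hormone synthesis were bright enough to test. Of 14 ecdysteroid synthesis genes 6 were tested, and 2 rose and 2 fell. Cyp18a1, which encodes an enzyme that inactivates ecdysteroids, read 10.02 and 10.15 at stage 16, against 8.76 and 8.40 at stage 14. The sterol carrier gene Npc2a rose by 1.30, while woc fell by 0.87 and Start1 by 0.76. The median of these 6 genes was -0.08 and turned to 0.14 after centring. Of 4 tested juvenile hormone genes, 3 fell and 1 rose. Besides jhamt, JhI-21 fell by 1.82 and the farnesyl pyrophosphate synthase gene Fpps by 1.12, and the epoxide hydrolase gene Jheh2 read 4.63 and 4.66 at stage 16, against 3.56 and 3.56 at stage 14.

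Genes of the cell cycle and DNA replication fell as a group. Of 50 tested, 44 fell and 2 rose, with a median of -1.73, and after centring 42 fell and 2 rose. The anaphase activator fzy read 4.78 and 4.78 at stage 16, against 9.54 and 9.37 at stage 14, a fall of 4.67 ± 0.11 on the log2 scale. The spindle kinesin gene Klp61F read 2.84 and 2.58 at stage 16, against 7.37 and 7.34 at stage 14. The cytokinesis gene tum read 4.67 and 4.72 at stage 16, against 9.15 and 9.07 at stage 14. These mitotic genes showed no overlap between the stages and little spread within either, which their choice among the 4 largest falls of the list favours. Cks30A was at least 15.9-fold lower. Of the genes named here for the other direction, Cks85A rose by 1.17 and Orc1, an origin recognition subunit, by 0.48. PCNA, the replication clamp, read 9.38 and 9.08 at stage 16, against 9.78 and 9.57 at stage 14, and did not pass (-0.44 ± 0.16, adjusted p = 0.0565). Of the 50 genes, 9 were above 4 at stage 14 only, and of the 41 above 4 at both stages 35 fell and 2 rose, with a median of -1.48. The plot of mean signals shows the list below the line of equal signal at both high and low levels.

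**Figure D5:**
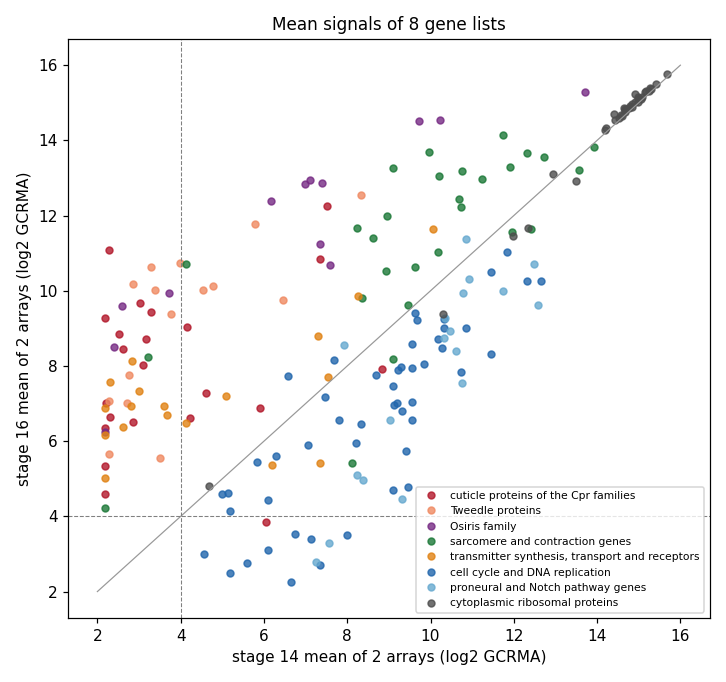
Mean signal at stage 16 (y axis) against mean signal at stage 14 (x axis), both log2 GCRMA and means of 2 arrays, for the tested genes of 8 lists. The grey line marks equal signal and dashed lines the signal minimum of 4; most Cpr, Tweedle, Osiris, sarcomere and transmitter genes lie above the line, 44 of 50 cell cycle genes fell, and most cytoplasmic ribosomal protein genes lie on or close to it (median change 0.10).

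Neuroblast and temporal identity factors fell or did not pass: of 30 tested, 19 fell and none rose, with a median of -1.37, and after centring 18 fell. The zinc finger gene klu read 4.36 and 4.41 at stage 16, against 7.75 and 7.76 at stage 14. The neuroblast proneural gene ase read 7.11 and 7.08 at stage 16, against 9.39 and 9.42 at stage 14. Both genes, among the 4 largest falls of the list, were separated by over 2 log2 units with close replicates. nerfin-1, active in early neurons, fell by 2.27, and pon, a partner of the fate determinant Numb, by 2.20. Replicate 1 was the lower stage 16 array for 24 of the 30 genes, and without the replicate 1 arrays 24 fell and 2 rose.

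Proneural and Notch pathway genes fell in 15 of 18 tested cases and rose in 2, with a median of -1.99, and the counts were the same after centring. The Enhancer of split genes, direct targets of Notch signalling, led the falls. E(spl)mdelta-HLH read 4.41 and 4.49 at stage 16, against 9.35 and 9.26 at stage 14. E(spl)m5-HLH read 3.33 and 3.26 at stage 16, against 7.57 and 7.57 at stage 14. E(spl)m6-BFM was at least 9.6-fold lower and E(spl)m4-BFM fell by 3.42. Of the 16 genes above 4 at both stages 13 fell and 2 rose, with a median of -1.76. The genes that rose were mam, a coactivator of Notch, by 0.65, and fng, a glycosyltransferase acting on Notch, by 0.52. Without the replicate 1 arrays 16 fell and 1 rose, and mam lost its call.

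Segmentation and patterning genes fell in 30 of 37 tested cases and rose in 1, with a median of -1.18, and after centring 27 fell. The Pax gene gsb read 2.36 and 2.32 at stage 16, against 6.70 and 6.72 at stage 14. The GATA factor gene pnr, active in the dorsal ectoderm, read 4.10 and 4.36 at stage 16, against 8.47 and 8.49 at stage 14. gsb-n fell by 3.74 and the T-box gene Doc2 was at least 3.15-fold lower. Of the 31 genes above 4 at both stages 25 fell and none rose, with a median of -1.08. The exception was eve, a homeobox gene also expressed in a few neurons and heart cells, at 4.97 and 4.72 at stage 16 against 2.79 and 2.80 at stage 14. Of 10 tested Hox genes and cofactors 1 rose and 3 fell: salr rose by 0.74, while cad, tsh and salm fell by 0.72, 0.67 and 0.62. These shares, 10% and 30%, lay below the 22.4% and 39.8% of all genes. After centring 2 rose and 2 fell. Without the stage 16 replicate 1 arrays 1 rose and 7 fell, so the count of fallen genes depends on those arrays.

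Of 17 tested pan-neuronal genes 9 rose and 2 fell, with a median of 1.20. Of the 14 above 4 at both stages 6 rose and 2 fell, with a median of 0.29. nSyb, the neuronal synaptobrevin of synaptic vesicles, read 6.71 and 6.76 at stage 16, against 2.53 and 2.53 at stage 14, at least 6.66-fold higher. The neurexin gene Nrx-1 read 7.63 and 7.18 at stage 16, against 3.56 and 3.48 at stage 14. jus read 8.32 and 7.92 at stage 16, against 2.74 and 2.67 at stage 14. nSyb, Nrx-1 and jus passed the signal minimum through stage 16 only. Sap47, a synapse-associated gene, rose by 2.24. The genes that fell were nerfin-1 and elav. elav, an RNA-binding protein of all neurons whose regulatory sequence drives the GAL4, read 11.51 and 11.63 at stage 16, against 12.23 and 12.21 at stage 14, and fell by 0.65 ± 0.09 on the log2 scale (adjusted p = 0.00147, and 0.00781 after centring).

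Synaptic vesicle and release genes rose in 17 of 29 tested cases and fell in 2, with a median of 1.23, and after centring 20 rose and none fell. Of the 24 above 4 at both stages 12 rose and 2 fell, with a median of 0.53. Vmat, the vesicular monoamine transporter, read 8.27 and 6.90 at stage 16, against 2.29 and 2.32 at stage 14. The calcium channel gene cac read 7.63 and 8.51 at stage 16, against 4.06 and 3.73 at stage 14. The synapsin gene Syn read 9.18 and 10.41 at stage 16, against 5.67 and 5.91 at stage 14. The stage 16 arrays of these genes differed by up to 1.37, and none overlapped stage 14, which their choice among the 4 largest rises of the list favours. AP-2alpha and Dap160, which act in endocytosis, fell by 0.70 and 0.51, and neither kept its call after centring.

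Transmitter genes rose in 15 of 18 tested cases and fell in 1, with a median of 2.94. Of the 18, 10 were above 4 at stage 16 only, and of the other 8, which were above 4 at both stages, 5 rose and 1 fell with a median of 1.54. The remaining 23 genes of the list were not bright enough to test. ChT, a choline transporter gene, read 8.03 and 8.25 at stage 16, against 2.84 and 2.84 at stage 14. DAT, the dopamine transporter gene, read 6.87 and 6.87 at stage 16, against 2.18 and 2.18 at stage 14. Gad1, which makes the transmitter GABA, read 7.24 and 7.44 at stage 16, against 2.84 and 3.18 at stage 14. ChT, DAT and Gad1 are among the genes that passed the signal minimum through stage 16 only. Of the muscle glutamate receptor subunits, GluRIIB read 5.59 and 5.27 at stage 16, against 7.42 and 7.27 at stage 14, and fell. GluRIIA, in contrast, read 6.74 and 7.12 at stage 16, against 3.64 and 3.56 at stage 14; it and GluRIIE were looked up after the fall of GluRIIB was seen, and GluRIIE was at least 5.18-fold higher.

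Ion channel genes rose in 10 of 20 tested cases and fell in 3, with a median of 0.88. Of these, 6 were above 4 at stage 16 only and 3 at stage 14 only, and of the 11 above 4 at both stages 4 rose and none fell, with a median of 0.22. With stage 16 replicate 2 of the controls left out, 5 fell. SK, a calcium-activated potassium channel gene, read 9.57 and 9.47 at stage 16, against 3.84 and 3.84 at stage 14. The potassium channel gene Shaw was at least 3.02-fold higher and the sodium-calcium exchanger gene Calx at least 1.84-fold. The channel genes rpk and Ork1 were at 2.19 and 2.31 on both stage 16 arrays and at 5.50 to 5.66 at stage 14, and NaCP60E was at least 2.51-fold lower. Of 39 neuropeptide precursors only 6 were bright enough to test in whole embryos, and 5 rose and 1 fell. Of these 6, 3 were above 4 at stage 16 only, and with each control array left out 3 to 4 rose, the fewest without either stage 14 array. Mip read 6.47 and 6.15 at stage 16, against 2.42 and 2.33 at stage 14. Pdf read 5.43 and 5.51 at stage 16, against 2.52 and 2.49 at stage 14. Nplp1 was at least 4.45-fold higher and CCHa2 rose by 1.72, CCHa2 losing its call without the replicate 1 arrays (adjusted p = 0.12), and ITP fell by 0.37 and lost its call after centring. Of 11 tested genes of peptide processing and dense core vesicles, 7 rose and none fell, with a median of 2.19. Of these, 4 were above 4 at stage 16 only, and of the 7 above 4 at both stages 3 rose, with a median of 0.08. IA-2, a dense core vesicle membrane protein gene, read 9.41 and 9.02 at stage 16, against 2.56 and 2.55 at stage 14. The prohormone convertase gene amon was at least 7.37-fold higher and Rph at least 3.31-fold, and CG1275, a cytochrome b561 gene, rose by 2.91.

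Of 41 tested axon guidance and neural adhesion genes 3 rose and 14 fell, with a median of -0.69, and 24 did not pass. After centring, 4 rose and 10 fell. Drl-2, a receptor kinase gene, read 7.63 and 6.42 at stage 16, against 3.66 and 3.72 at stage 14. babos rose by 0.90 and the receptor phosphatase gene Ptp99A by 0.47. The guidance gene dnt fell by 1.65, Sema1a by 1.52 and rst, an adhesion receptor gene, by 1.39. beat-IIb read 2.23 and 2.31 at stage 16, against 4.07 and 4.08 at stage 14, barely above the signal minimum, and was at least 1.06-fold lower. Replicate 1 was the lower stage 16 array for 32 of the 41 genes. Without the stage 16 replicate 1 arrays 7 rose and 23 fell, a share above that of all genes, where the share on all arrays is below it. With each control array left out 8 to 25 fell, the most without stage 16 replicate 2 and the fewest without stage 14 replicate 2. Lar, chosen after its values were seen, read 4.26 and 8.58 at stage 16, against 8.25 and 8.30 at stage 14, so the 2 stage 16 arrays gave opposite accounts of it.

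Of 21 tested glial genes 4 rose and 9 fell, with a median of -0.28, and after centring 5 rose and 5 fell. With each control array left out 4 to 10 fell: 5 without stage 16 replicate 1, 5 without stage 14 replicate 1 and 4 without stage 14 replicate 2. The glial regulator repo read 10.28 and 10.31 at stage 16, against 10.70 and 10.71 at stage 14, and its fall (-0.41 ± 0.12, adjusted p = 0.0281) was lost after centring (adjusted p = 0.24). The fate gene gcm read 8.17 and 7.72 at stage 16, against 10.03 and 9.97 at stage 14. alrm, an astrocyte gene, read 8.71 and 9.18 at stage 16, against 6 and 5.85 at stage 14. Swim read 7.54 and 7.19 at stage 16, against 2.51 and 2.40 at stage 14. The shares of glial genes that rose and fell, 19% and 42.9%, were near those of all genes, 22.4% and 39.8%. bero and CG9338 rose by 0.77 and 0.66, and Gli, bnb and Cont fell by 1.27, 0.93 and 0.94.

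Of 30 tested septate junction genes 4 rose and 14 fell, with a median of -0.67, and the share that fell is near that of all genes. The 4 that rose, mesh, Tsp2A, hoka and Ssk, are known from the smooth septate junctions of gut and Malpighian tubules. mesh read 12.25 and 12.36 at stage 16, against 10.39 and 10.36 at stage 14. Tsp2A rose by 1.84, hoka by 1.28 and Ssk by 0.88. The largest falls were those of bark and Gli, of tricellular junctions, which fell by 2.19 and 1.27, of the polarity gene yrt, which fell by 1.31, and of bou, which fell by 1.18. Replicate 1 was the lower stage 16 array for 27 of the 30 genes, with a median gap of -0.58. After centring 5 rose and 8 fell, and without the stage 16 replicate 1 arrays of both genotypes 7 rose and 16 fell; the 4 named rises kept their calls under both. Without replicate 1 of the stage 16 controls alone 8 fell, and with each control array left out 5 to 21 fell, the fewest without either stage 14 array.

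Sarcomere and contraction genes rose in 21 of 28 tested cases and fell in 1, with a median of 1.53, and the counts were the same after centring. Of the 26 above 4 at both stages 19 rose and 1 fell. Mf, the myofilin gene of thick filaments, read 10.73 and 10.70 at stage 16, against 4.38 and 3.89 at stage 14. Prm, paramyosin, read 13.03 and 13.49 at stage 16, against 9.25 and 8.93 at stage 14. The Z-disc gene Zasp66 read 9.03 and 7.43 at stage 16, against 3.18 and 3.26 at stage 14. Mlp60A, a muscle LIM protein gene, rose by 3.71. Genes of thick filaments and of the Z-disc are both among those that rose. unc-45, a myosin chaperone gene, fell by 0.93. Among 30 myogenic regulators and fusion genes, 5 rose and 9 fell, with a median of -0.29, and without the stage 16 replicate 1 arrays 10 rose and 13 fell. Without either stage 14 control array 3 rose. On all arrays the shares of these 30 genes that rose and fell were 16.7% and 30%, against 22.4% and 39.8% of all genes. The attachment genes Dg and if rose by 1.40 and 0.91, Dys by 0.72 and the identity gene slou by 0.62. Him, which holds back muscle differentiation, fell by 2.83, Kr fell by 1.95, the fusion regulator lmd by 1.47 and the fusion receptor rst by 1.39.

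Of 27 tested tracheal genes 9 rose and 8 fell, which is 33.3% and 29.6%, against 22.4% and 39.8% of all genes. Their median was -0.30. ect, expressed in ectodermal derivatives, read 12.54 and 12.79 at stage 16, against 9.25 and 9.22 at stage 14. Gasp, a chitin-binding protein of the tracheal lumen, read 13.79 and 14.04 at stage 16, against 12.50 and 12.39 at stage 14. The branch identity gene kni read 7.77 and 7.94 at stage 16, against 9.63 and 9.87 at stage 14, crb, an apical polarity gene, fell by 1.38, and reb was at least 2.47-fold lower. Another fallen gene, bnl, had probe sets called in opposite directions and is uncertain. The genes kkv, Gasp and Osi18 also belong to the cuticle lists above, so these counts are not independent of those.

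Basement membrane and extracellular matrix genes rose in 12 of 23 tested cases and fell in 1, with a median of 0.64. Of the 21 above 4 at both stages 10 rose and 1 fell, with a median of 0.30. Timp, a metalloprotease inhibitor gene, read 7.57 and 8.06 at stage 16, against 2.33 and 2.43 at stage 14. prc, a collagen-like gene of the heart, read 8.49 and 7.92 at stage 16, against 2.99 and 2.99 at stage 14. The collagen IV gene Col4a1 read 12.53 and 12.58 at stage 16, against 9.85 and 9.84 at stage 14, and the perlecan gene trol rose by 2.76. Of these genes, Col4a1 was already bright at stage 14, and Timp and prc were below 4. Sulf1, a sulfatase gene, fell by 0.63.

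Of 18 tested haemocyte genes 6 rose and 6 fell, which is 33.3% each, against 22.4% and 39.8% of all genes. Of the 16 above 4 at both stages 4 rose and 6 fell. After centring 3 fell, and with either stage 14 control array left out 3 fell. atilla read 9.79 and 8.57 at stage 16, against 3.35 and 2.84 at stage 14, and NimB4 read 9.78 and 9.22 at stage 16, against 3.51 and 3.53 at stage 14. The scavenger receptor gene Sr-CI read 4.85 and 4.89 at stage 16, against 7.41 and 7.70 at stage 14. The haemocyte and fat body regulator srp read 10.27 and 11.60 at stage 16, against 12 and 11.95 at stage 14, and did not pass (-1.04 ± 0.54, adjusted p = 0.143). Of 21 tested fat body genes 3 rose and 6 fell, which is 14.3% and 28.6%, both below the shares of all genes. After centring 7 rose and 6 fell. Without the stage 16 replicate 1 arrays 8 rose and 9 fell, and without replicate 1 of the stage 16 controls alone 5 rose. Npc2e, a sterol carrier gene, was at least 10.6-fold higher. The lipid synthesis gene mdy fell by 0.98 and Pepck1, of gluconeogenesis, by 1.07, and Dgat2 was at least 1.35-fold lower.

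Of 11 tested midgut genes, among 49 with a probe set, 5 rose and 2 fell, and of the 9 above 4 at both stages 3 rose and 2 fell, with a median of 0.17. The protease gene Jon65Aiii read 8.65 and 7.79 at stage 16, against 2.18 and 2.18 at stage 14. The maltase gene Mal-A3 read 8.39 and 7.28 at stage 16, against 2.19 and 2.19 at stage 14. MtnA, a metallothionein gene, read 13.54 and 13.07 at stage 16, against 9.59 and 9.57 at stage 14. Jon65Aiii and Mal-A3 were at the lowest signal at stage 14 and bright at stage 16, while the trypsin gene alphaTry stayed at the lowest signal. Of 16 tested salivary gland genes 5 rose and 4 fell, which is 31.2% and 25%, against 22.4% and 39.8% of all genes. Without the stage 16 replicate 1 arrays 9 fell, and with each control array left out 4 to 6 fell. Without stage 16 replicate 2 of the controls 4 rose, and without any other single control array 3 rose. nur and ps rose by 0.54 each, and wbl, a secretory pathway gene, read 9.41 and 9.41 at stage 16, against 12.05 and 12.02 at stage 14. Of 18 tested Malpighian tubule and hindgut genes 6 rose and 7 fell, and with each control array left out 3 to 6 rose, the fewest without stage 14 replicate 1, and 4 to 8 fell, the fewest without stage 14 replicate 2. On all arrays the shares of these 18 genes that rose and fell were 33.3% and 38.9%, against 22.4% and 39.8% of all genes. The zinc transporter gene ZnT35C rose by 2.44 and the xanthine dehydrogenase gene ry by 1.41, while lin fell by 1.36 and bowl by 1.12.

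Sensory organ genes fell in 9 of 15 tested cases and rose in 3, and of the 11 above 4 at both stages 6 fell and 2 rose. The selector sens read 2.99 and 3.16 at stage 16, against 6.70 and 6.77 at stage 14. The ciliary transport genes Oseg1 and Oseg4 fell by 2.71 and 2.70. nompA, which joins sensory cilia to the cuticle, read 8.37 and 8.41 at stage 16, against 5.37 and 5.36 at stage 14. Of 19 tested germline, maternal and piRNA genes 12 fell and 1 rose, with a median of -1.12, and of the 15 above 4 at both stages 8 fell and 1 rose, with a median of -0.61. aub, a piRNA-binding protein gene, read 3.45 and 3.38 at stage 16, against 6.69 and 6.45 at stage 14, squ was at least 4.75-fold lower and mael at least 4.62-fold. mael changed by -2.27 on the log2 scale in controls and by -0.01 in elav-dimm embryos, a difference that did not pass the test. The risen gene, pum, had probe sets called in opposite directions. Among 13 tested apoptosis regulators 7 fell and 1 rose, and without stage 14 replicate 2 of the controls 3 fell. The caspase genes Dronc, Strica and Dcp-1 fell by 1.38, 1.19 and 1.13 and the death receptor gene grnd by 1.80, while its ligand gene egr rose by 0.45.

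Glycolysis and sugar metabolism genes rose in 14 of 24 tested cases and fell in 4, with a median of 0.66. Tpi read 12.74 and 12.51 at stage 16, against 9.42 and 9.51 at stage 14. Gapdh1 read 11.62 and 11.57 at stage 16, against 8.48 and 8.47 at stage 14. Pgk read 10 and 9.73 at stage 16, against 7.21 and 7.18 at stage 14. These 3 genes of glycolytic enzymes differed by over 2 log2 units with no overlap, which their choice among the 4 largest rises of the list favours. The hexokinase gene Hex-A fell by 0.94, Gpdh1 by 1.19 and the glucose transporter gene Glut1 by 0.46, whose call was lost after centring.

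Respiratory chain and ATP synthase subunits showed small rises: of 58 tested, 31 rose and 2 fell, with a median of 0.47. After centring 49 rose, with the 4 control arrays alone 16 rose, and without replicate 1 of the stage 16 controls 12 rose. With each control array left out 7 to 41 rose, with 10 without stage 14 replicate 1 and 7 without stage 14 replicate 2, so the number of risen subunits depends on single arrays. Centring on the median of all probe sets gave 27 risen and 2 fallen subunits. ND-B14.5A read 11.32 and 10.65 at stage 16, against 9.97 and 10 at stage 14. UQCR-11 fell by 0.81 and sun was at least 1.52-fold lower. Mitochondrial ribosomal proteins rose in 12 of 71 cases, 16.9% against 22.4% of all genes, and fell in none, against 39.8% of all genes. Their median was 0.29. After centring 25 rose, with the 4 control arrays alone 5 rose, and without the stage 16 replicate 1 arrays of both genotypes 20 rose and 7 fell. With each control array left out 2 to 27 rose: 3 without stage 16 replicate 1, 27 without stage 16 replicate 2, 3 without stage 14 replicate 1 and 2 without stage 14 replicate 2. Centring on the median of all probe sets gave 7 risen and 1 fallen. Replicate 1 was the higher stage 16 array for 63 of the 71. Cytoplasmic ribosomal proteins mostly did not pass: of 35 tested, 2 rose and 4 fell, with a median of 0.10. The 4 that fell were RpLP0-like, RpL24-like, RpS5b and RpL7-like. After centring 22 rose and 2 fell, and after quantile normalisation of the arrays together none rose and 2 fell with a median of 0, so their direction depends on the scaling. Vacuolar proton pump subunits rose in 13 of 20 cases and fell in none, with a median of 0.57. With each control array left out 6 to 16 rose, the fewest without the stage 14 arrays. Vha100-5 read 8.75 and 8.86 at stage 16, against 2.20 and 2.20 at stage 14. Proteasome subunits fell in 14 of 26 cases and rose in none, with a median of -0.41 close to that of all genes. After centring 4 fell, after quantile normalisation 5 fell, and without the stage 16 replicate 1 arrays 23 fell. With each control array left out 3 to 14 fell: 9 without stage 16 replicate 2, 3 without stage 14 replicate 1 and 6 without stage 14 replicate 2. Centring on the median of all probe sets gave 16 fallen proteasome genes. Rpn1 fell by 0.95 and Rpn6 by 0.80.

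The same stage change was measured in elav-dimm embryos on 4 other arrays. No probe set passed the test for a difference in stage change between elav-dimm and control embryos (0% of 8144 called by limma, with 242 at an unadjusted p under 0.05). That fit took the 8 arrays as independent. With same-numbered arrays of a stage as a random block (correlation within blocks 0.741), 4 probe sets were called lower and 0 higher. The lack of calls therefore does not show that the stage changes are equal. Among the 15 largest control rises, the elav-dimm change ranged over 4.33 to 8.58, against 7.04 to 8.79 in controls. Among the 15 largest falls it ranged over -7.71 to -4.65, against -8.17 to -4.86 in controls. These genes were chosen by their control change, so the ranges do not compare the genotypes. The smallest elav-dimm rise, that of TwdlB, had 10.13 and 3.04 on the 2 elav-dimm arrays of stage 14. The smallest p-values for a difference belonged to CG4440, with -4.39 in elav-dimm and -2.03 in control embryos (adjusted p = 0.213), and CG34224, with -7.06 in elav-dimm and -5.81 in control embryos (adjusted p = 0.292). The 2 stage 16 arrays of elav-dimm embryos differed as the control pair did. The difference of replicate 1 minus replicate 2 correlated at 0.906 between the genotypes over the 8144 probe sets, a description over probe sets that share their arrays, and whether same-numbered arrays of stage 16 shared a preparation was not tested.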

How the data were processed

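Affymetrix Drosophila Genome 2.0 arrays were hybridised with biotin-labelled cRNA from total RNA, 2 arrays for each of 4 groups. The deposited values are log2 signals that the authors made with GCRMA 2.22.0 under R 2.12.1; these versions, and limma without one, stand in the submitters' processing notes, per the labels. No label says if all arrays were normalised in one run. Array data carry no counts, so the precision rests on the number of arrays and on the spread between them.

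After removal of 183 control probe sets, the platform annotation gave 1 gene for 13647 of the other 18769, several for 402 and none for 4720; those with 1 gene covered 11983 genes; 89 identifiers were not in the RefSeq gene table. Probe sets above 4 on at least 2 of the 4 control arrays were tested. limma 3.58.1 in R 4.3.3 fitted 4 group means on all 8 arrays (4 residual and 1.47 prior degrees of freedom), with Benjamini-Hochberg adjustment over 8144 probe sets and a threshold of 0.05. The contrasts were stage 16 over stage 14 in controls and the difference of that change between genotypes. Errors are standard errors of the fit. The fit was tested on simulated data. Where several single-gene probe sets match a gene, the one brightest on average in the control arrays stands for it. Of 309 genes with at least 2 tested probe sets, 11 had probe sets called in opposite directions. Named genes are the 15 largest rises and falls past the test whose arrays do not overlap, up to 4 members each way past the test from each of 47 lists, up to 5 genes each way for the difference (none passed), and elav, nSyb, repo, Mhc, kkv, grh, PCNA, stg, EcR, ftz-f1, srp, trh and dimm. Other genes are marked as chosen after their values were seen, and markers, controls and probe sets called in opposite directions are named for those checks only. Some genes stand in several lists. The arrays compared, the lists and the tests were chosen with earlier results of these data known. Same-numbered arrays do not pair across stages: their deviations correlated at -0.0264. Alternatives covered scaling, filters, the floor, weights, blocks and left-out arrays.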

Additional observations from a re-analysis of the deposited data

How the results depend on the processing

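Of 275 named genes past the test, none changed direction under any alternative run that tested them. With the signal minimum at 6, 248 of them were tested. They were mostly named for large changes on these same arrays, which makes a change of direction unlikely beforehand. Leaving out 1 stage 14 control array cost the most calls. With no filter on dim signals 10424 probe sets were higher, where probe sets at the lowest value differ by stage through that value alone, and 3 and 2 differed between the genotypes higher and lower. The number of probe sets differing between the genotypes was otherwise 0, except for 1 lower when the filter used all 8 arrays, 1 higher with values below 4 raised to 4, 4 lower with same-numbered arrays of a stage as a random block, and 2 higher and 4 lower without both stage 16 replicate 1 arrays; the cause was not tested. Leaving out 1 array at a time gave 1377 to 1852 higher and 2240 to 3486 lower for the stage change in controls, and 0 to 1 higher and 0 lower for the difference, with the lone array of a group assumed to vary like the others. With the replicate number as a block across stages, 1845 were higher and 3434 lower in controls, and 0 differed between the genotypes; the deviations of same-numbered arrays do not pair the stages, so this block rests on a shared number only. With replicate 1 of the stage 16 controls left out and control arrays only, an alternative chosen after seeing the data, 2144 were higher and 3992 lower. Quantile normalisation of all arrays together gave 1949 higher and 2706 lower, and the 4 control arrays alone 1572 and 2715. Signals near the lowest value bound what can be said of dim genes.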

Other observations

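Of 25 tested cytochrome P450 genes 14 rose and 6 fell, and 6 were above 4 at stage 16 only. Of the 19 above 4 at both stages 8 rose and 6 fell, with a median of -0.13. With stage 14 replicate 2 of the controls left out 3 of the 25 fell. Cyp4g1, an enzyme of hydrocarbon synthesis in oenocytes, was looked up after its values were seen and read 9.75 and 9.97 at stage 16, against 6.42 and 6.38 at stage 14. Cyp4e1 rose by 3.84. With signals below 4 raised to 4, Cyp304a1, Cyp4d1 and Cyp49a1 were at least 10.3-fold, 8.84-fold and 7.33-fold higher, while Cyp6a8 fell by 2.27 and Cyp310a1 by 1.64. Of 21 tested glutathione S-transferase genes 15 rose and 1 fell, with a median of 0.72, and of the 17 above 4 at both stages 11 rose and 1 fell, with a median of 0.56. GstO3 read 11.31 and 10.90 at stage 16, against 7.56 and 7.66 at stage 14. GstD10 and GstE10 were at least 4.77-fold and 4.03-fold higher, and GstD3 fell by 0.77.

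Of tested chaperone genes 23.1% rose and 30.8% fell, and of tested immune genes 26.7% and 40%, against 22.4% and 39.8% of all genes. Of 13 tested heat shock family genes 3 rose and 4 fell, and without the stage 16 replicate 1 arrays 4 rose and 7 fell. With stage 16 replicate 2 of the controls left out 5 rose. l(2)efl, a small heat shock protein gene, read 13.68 and 13.20 at stage 16, against 9.81 and 9.74 at stage 14, and Hsc70-1 rose by 3.39. DnaJ-H and Hsp110 fell by 0.98 and 0.94. Of 15 tested genes of the Toll pathway and of antimicrobial defence 4 rose and 6 fell. The NF-kappaB factor gene dl and the Toll ligand gene spz rose by 2.28 and 2.17, while the receptor gene Tl read 11.58 and 12.09 at stage 16, against 13.03 and 12.97 at stage 14, and fell. The medians of both lists change sign with the scaling: that of the chaperones was -0.10 on the deposited scale and 0.12 after centring, and that of the Toll pathway and antimicrobial genes -0.23 and, after quantile normalisation, 0.04.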
